A study of Homo sapiens with 12 samples.

Results

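The genes described here are the heat shock proteins and J-domain co-chaperones of AC16 cells, measured by poly(A) RNA sequencing after pulses of interferon-α2a. Members were the rows whose Ensembl ID maps to a DNAJA, DNAJB, DNAJC, HSPA or HSPB symbol with a number, together with HSPH1, HSPD1, HSPE1, HSP90AA1, HSP90AB1, HSF1 and BAG3, at a mean of 10 or more counts per library. Of the 60649 rows of the count table, 72 had a matching symbol and 64 reached that mean. The 8 below it were DNAJB3, DNAJB7, DNAJB8, DNAJB13, HSPA7, HSPA12B, HSPB2 and HSPB9. HSPB2, just outside, had a mean of 9.58 counts, and HSPB3, just inside, had 14.2. The members comprised 13 HSPA genes, 26 DNAJC genes, 9 DNAJB genes, 4 DNAJA genes, 5 HSPB genes, 2 HSP90 genes, HSPH1, the chaperonin pair HSPD1 and HSPE1, and the regulators HSF1 and BAG3.

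HSP70 proteins (the HSPA genes) bind exposed hydrophobic stretches of unfolded proteins in a cycle driven by ATP. J-domain proteins (the DNAJ genes) deliver clients to an HSP70 and stimulate its ATPase, nucleotide exchange factors such as HSPH1 and BAG3 release them, and HSP90 and the chaperonins take over later folding steps. Small heat shock proteins (the HSPB genes) hold clients without ATP, the endoplasmic reticulum and the mitochondrion each have their own HSP70 and J-domain proteins, and HSF1 is the transcription factor of the heat shock response. Cardiac muscle depends on small heat shock proteins and on BAG3 for turnover of its contractile proteins.

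AC16 is a proliferating human line made by fusing adult ventricular cells with a transformed fibroblast line, and all 12 libraries were labelled wild type. The vehicle group received PBS and is labelled as collected at 24 h. Cells of the acute group received 1000 U per mL of IFN-α2a for 24 h and were collected at its end. The recovery group had the same 24 h pulse and then 5 d without cytokine, with collection labelled day 6. In the repeat group the 24 h pulse was followed by 4 d without cytokine and another 24 h pulse, with collection labelled day 7 although the stated intervals sum to less. Each group had 3 libraries, stated to be independent biological replicates. Time in culture differed between the vehicle and recovery groups as labelled, so its effect cannot be told apart from that of the earlier pulse. The protocols name 2 culture media, DMEM/F-12 in one place and RPMI 1640 in another.

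Total counts ranged from 39941319 to 62281900 per library, and 18119 genes, including all 64 members, passed the filter on low counts. MX1, an interferon-induced GTPase, lay at 1.05 to 1.63 TPM in vehicle, 307 to 316 in acute, 2.50 to 3.25 in recovery and 315 to 319 in repeat libraries. Of 10 cardiomyocyte markers, 1 (ACTN2) passed the filter, MYBPC3 and MYL7 were at 0 in every library, and the summed level of the list was 0.462 to 1.44 TPM. All 8 fibroblast markers passed, with summed levels of 2250 to 2300 TPM in vehicle, 1760 to 1870 in acute, 1990 to 2010 in recovery and 1540 to 1640 in repeat libraries. The labelled cardiomyocyte identity was therefore not seen in its defining transcripts. Mitochondrially encoded genes took 5.44% to 5.76% of counts in vehicle, 4.54% to 4.83% in acute, 5.57% to 5.69% in recovery and 4.38% to 4.59% in repeat libraries. In each pulse 6 of the 8 fibroblast markers fell, and in recovery against vehicle 7 were lower. Fibroblast markers and the mitochondrial share thus moved with the pulses, and their part in the chaperone results was not tested. In these bulk samples, fewer cells of a type and less RNA per cell cannot be told apart.

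Promoter windows of 59 members, 78 windows in all, could be read from RefSeq (GRCh38.p14), from 250 bases before to 50 after a transcript start. DNAJC1, DNAJC22, DNAJC24, HSF1 and HSPA14 are the members without one here. The heat shock element, the inverted repeats that trimeric HSF1 binds, was searched as 3 units that alternate between GAA and its complement TTC, with exactly 2 free bases between units, beginning with either, which covers both strands. It was found in 7 of 78 member windows (8.97%), in those of DNAJA1, DNAJB6, HSP90AA1, HSP90AB1, HSPA6, HSPA8 and HSPD1, against 168 of 35116 windows of all genes (0.478%). HSPA1A, HSPA1B, DNAJB1, HSPH1, HSPB1 and BAG3 were among the members without a match. Only complete units within these windows were searched, so a missing match does not show that a gene lacks the element. The core of the interferon-stimulated response element, a pair of GAAA with 2 free bases between them, or of its complement TTTC for the other strand, was in 0 of 78 member windows and in 3.57% of all windows. An endoplasmic reticulum stress element, CCAAT and CCACG separated by any 9 bases on either strand, was added after the values were seen. It was in 1 member window (1.28%), that of HSPA5, and in 27 of all windows (0.0769%). Motifs were counted separately and a match describes letters alone. Windows off the main chromosomes were left out for the members, and no such filter was applied to the windows of all genes.

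Stretches of 250 bases are shown 5′ to 3′ on the gene's strand for members whose transcripts moved in both pulses, with motif matches in capitals. The DNAJA1 stretch (chr9:33025040-33025289, plus strand) covers 233 bases before the start and 17 from it, and its heat shock element begins just past the start. In HSPA8 (chr11:123062137-123062386, minus strand) the matches end 216 and 41 bases before the start. In HSP90AB1 (chr6:44247693-44247942, plus strand) they end 151 and 98 bases before it. DNAJB6 (chr7:157336754-157337003, plus strand) is shown because it holds an element, 117 bases before the start, and its transcript fell. HSPA5 (chr9:125241344-125241593, minus strand) holds the endoplasmic reticulum stress element, 47 bases before the start.

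DNAJA1: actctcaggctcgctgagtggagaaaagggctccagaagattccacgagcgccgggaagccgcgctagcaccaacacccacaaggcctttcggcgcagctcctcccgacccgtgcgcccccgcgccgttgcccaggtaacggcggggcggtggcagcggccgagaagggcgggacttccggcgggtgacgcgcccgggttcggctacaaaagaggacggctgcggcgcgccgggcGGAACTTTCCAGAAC

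HSPA8: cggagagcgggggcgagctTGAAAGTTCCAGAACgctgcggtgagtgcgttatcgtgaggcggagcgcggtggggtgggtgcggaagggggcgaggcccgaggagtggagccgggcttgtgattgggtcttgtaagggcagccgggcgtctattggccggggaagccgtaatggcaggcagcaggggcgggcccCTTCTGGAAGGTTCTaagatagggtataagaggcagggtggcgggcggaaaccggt

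HSP90AB1: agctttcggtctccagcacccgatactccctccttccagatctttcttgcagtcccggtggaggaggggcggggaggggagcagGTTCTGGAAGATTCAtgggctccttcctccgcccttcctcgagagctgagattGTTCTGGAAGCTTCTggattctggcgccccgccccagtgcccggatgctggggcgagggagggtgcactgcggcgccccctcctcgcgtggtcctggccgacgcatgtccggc

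DNAJB6: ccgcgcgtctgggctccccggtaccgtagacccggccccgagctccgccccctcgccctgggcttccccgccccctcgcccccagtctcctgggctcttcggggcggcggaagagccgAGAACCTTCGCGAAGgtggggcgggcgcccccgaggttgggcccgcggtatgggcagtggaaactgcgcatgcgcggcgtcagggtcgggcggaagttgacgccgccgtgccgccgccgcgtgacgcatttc

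HSPA5: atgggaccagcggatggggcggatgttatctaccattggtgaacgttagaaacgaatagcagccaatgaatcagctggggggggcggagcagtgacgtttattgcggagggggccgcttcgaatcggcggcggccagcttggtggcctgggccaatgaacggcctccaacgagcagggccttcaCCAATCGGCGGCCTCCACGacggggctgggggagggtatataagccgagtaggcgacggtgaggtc

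Levels between genes were compared in TPM, which divides by transcript length. In vehicle libraries HSPA8, the constitutive cytosolic HSP70, stood highest at 1255 ± 27.9 TPM (SD, n = 3 here and below). The cytosolic HSP90 genes followed, HSP90AA1 at 606 ± 10.4 TPM and HSP90AB1 at 496 ± 9.19 TPM. Mitochondrial HSPA9 (412 ± 4.66 TPM), its chaperonin partner HSPD1 (386 ± 2.15 TPM), the small heat shock protein HSPB1 (318 ± 13.2 TPM), HSPE1 (290 ± 1.77 TPM) and the endoplasmic reticulum HSP70 HSPA5 (220 ± 3.52 TPM) came next. Each of these 8 lay further from its neighbours than the sum of their SDs. DNAJA1 was the most abundant DNAJA or DNAJB gene at 133 ± 2.17 TPM, and it did not differ beyond the spread from HSPA4 (131 ± 2.06 TPM) and DNAJB6 (130 ± 3.09 TPM). The stress-inducible HSPA1B (77.8 ± 3.77 TPM) and HSPA1A (38.4 ± 0.963 TPM) stood far below HSPA8, and HSPA6, which is made almost only under stress, was lowest of the 64 at 0.134 ± 0.0472 TPM.

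Summed over the 64 members, the level was 5914 ± 45.9 TPM in vehicle, 6665 ± 89.3 in acute, 5924 ± 90.9 in recovery and 6653 ± 77.5 in repeat libraries. The sum was thus higher in every library taken at the end of a pulse than in any library taken without one. HSPA8, HSP90AA1 and HSP90AB1 held 39.8% to 40.9% of it on group average. By class, the HSPA sum went from 2207 ± 31.0 TPM in vehicle to 2588 ± 40.5 in acute and from 2246 ± 49.6 in recovery to 2553 ± 33.9 in repeat libraries. The DNAJA sum went from 250.6 ± 6.29 to 323.9 ± 11.8 TPM in the first pulse, and from 251.4 ± 5.37 to 325.9 ± 10.3 TPM in the later one. The DNAJC sum was 745.9 ± 18.7 TPM in vehicle and 775.5 ± 18.8 in acute libraries, which overlapped. It was 736.6 ± 7.57 in recovery and 811.5 ± 13.8 in repeat libraries, which did not overlap. The small heat shock proteins summed to 327.0 ± 13.6 TPM in vehicle and 329.0 ± 4.43 in acute libraries, which overlapped, and to 310.7 ± 21.1 in recovery and 303.3 ± 24.0 in repeat libraries, which overlapped too.

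**Figure D1:**
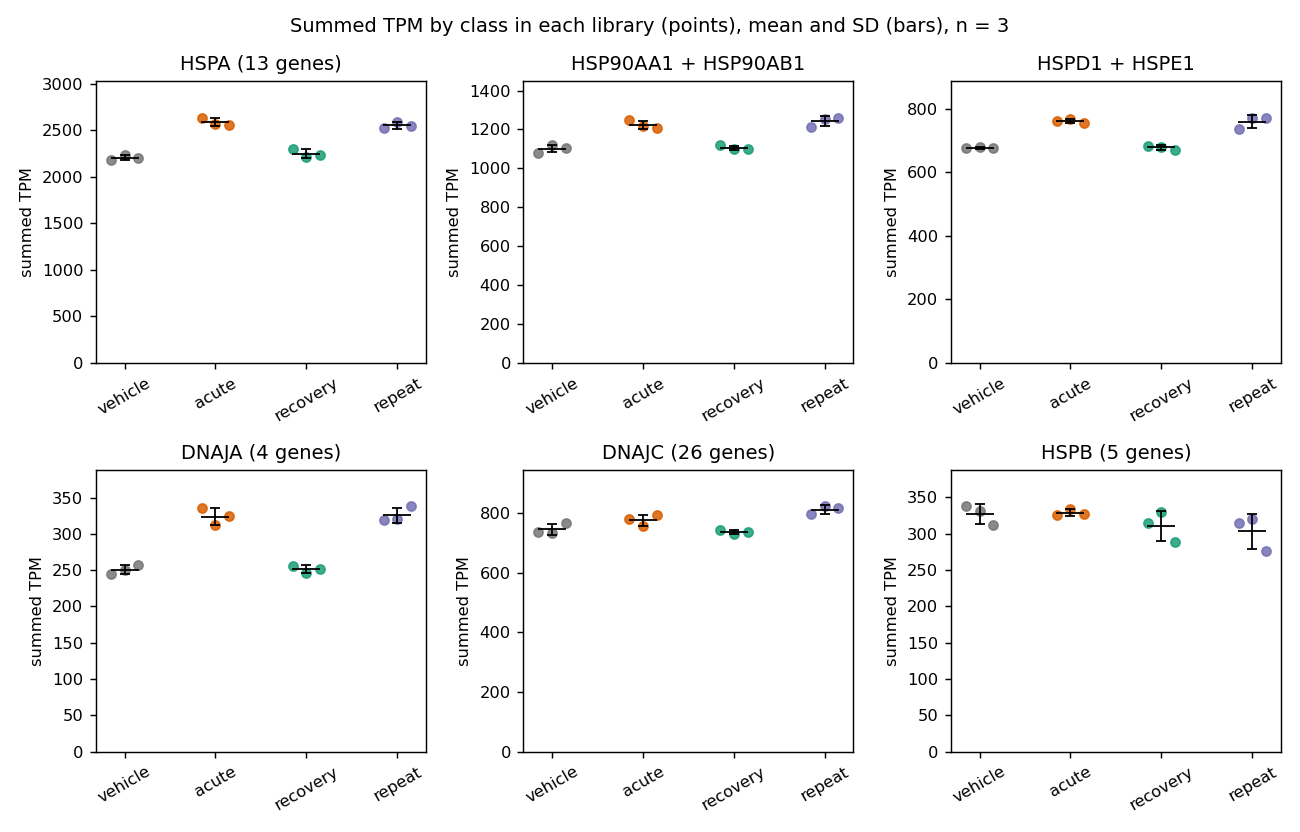
Summed TPM (vertical axis, from 0) of 6 classes of chaperone genes in each library (points), with the mean and SD of 3 libraries (bars), for the vehicle, acute, recovery and repeat groups. The HSPA, HSP90, chaperonin and DNAJA sums of acute and repeat libraries lie above those of vehicle and recovery libraries, while the HSPB sums of acute and vehicle libraries overlap, as do those of repeat and recovery libraries. The DNAJC sums of acute and vehicle libraries overlap, and those of repeat libraries lie above those of recovery libraries.

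The comparison of acute with vehicle libraries asked what a first 24 h pulse did to chaperone transcripts. Differences within a gene are given as log2 fold changes with SE from edgeR's quasi-likelihood test over all genes, and as CPM (counts scaled to the TMM-adjusted library size) per library. A gene is said to rise or fall where the Benjamini-Hochberg adjusted p over 18119 genes was under 0.05. In the first pulse 33 of 64 members (51.6%) rose and 8 (12.5%) fell, against a background of 22.3% of all genes higher and 21.5% lower. The median log2 fold change was 0.09 over the members and 0 over all genes. Of those averaging 1000 counts or more, 26 of 42 members (61.9%) rose and 4 (9.52%) fell, against 33.8% and 31.0% of 7827 genes. Upper quartile scaling gave 26 members higher and 11 lower, against 19.1% and 24.7% of all genes, and limma on log2(TPM + 1) gave 21 and 3, against 14.0% and 10.0%.

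The comparison of repeat with recovery libraries asked the same of a later pulse, and it shares no library with the first. Collection was labelled day 7 for repeat and day 6 for recovery libraries, after 4 d and 5 d without cytokine. The effect of these differences cannot be told apart from that of the pulse. Here 32 of 64 members (50%) rose and 10 (15.6%) fell, against 21.1% and 20.5% of all genes, with a median of 0.10 over the members and 0 over all genes. With the same floor of 1000 counts, 25 of 42 members rose and 7 fell, against 32.2% and 30.6% of all such genes. Limma on log2(TPM + 1) gave 21 higher and 2 lower, against 12.1% and 8.97% of all genes. The members that rose in both comparisons numbered 29, which is 87.9% of those of the first pulse and 90.6% of those of the later. The 6 that fell in both were 75% and 60% of the respective lists, and no member rose in one and fell in the other. These overlaps were not counted over all genes, so they are not shown to be particular to the members. Across the 64 members the 2 sets of log2 fold changes had a Pearson r of 0.889 and a Spearman rho of 0.865, against 0.662 and 0.687 across all 18119 genes. These are descriptions across genes, which are not independent replicates. Count levels also differed, as 42 of 64 members averaged 1000 counts or more, against 7827 of 18119 genes. No correlation was taken above that floor, so the higher values are not shown to be particular to the members.

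**Figure D2:**
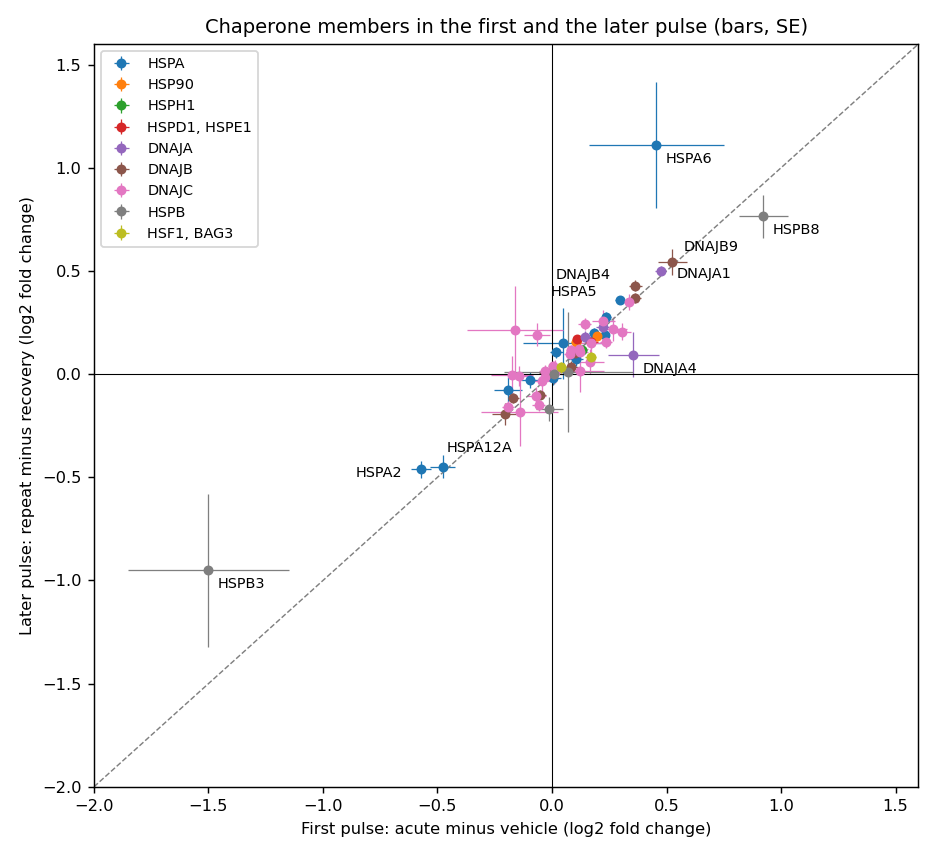
Log2 fold change of each of the 64 members in the first pulse (horizontal axis, acute minus vehicle) against the later pulse (vertical axis, repeat minus recovery), coloured by class, with SE as bars and the line of equal change dashed. Most members lie near the line, HSPB8 at 0.92 and 0.77 is highest among those that rose in both, and HSPB3 at -1.5 and -0.95 is lowest.

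Among the 13 HSP70 genes, HSPA8, HSPA5, HSPA9 and HSPA4 rose in both pulses and HSPA2 and HSPA12A fell in both. HSPA13 of the endoplasmic reticulum did not pass in the first pulse (0.02 ± 0.03), and HSPA14 passed in neither (-0.09 ± 0.04 and -0.03 ± 0.04). HSPA8 (chr11:123057489-123063230, GRCh38) measured 2118, 2186 and 2155 CPM in vehicle, 2553, 2529 and 2492 in acute, 2253, 2263 and 2209 in recovery and 2503, 2581 and 2598 in repeat libraries. All 6 libraries taken at the end of a pulse lay above the other 6. It rose by 0.23 ± 0.02 in the first pulse (edgeR adjusted p = 2.58e-10) and by 0.19 ± 0.02 in the later (adjusted p = 9.04e-09). HSPA5, the BiP protein of the endoplasmic reticulum (chr9:125234853-125241382), measured 732, 750 and 730 CPM in vehicle, 915, 901 and 898 in acute, 723, 707 and 707 in recovery and 911, 919 and 912 in repeat libraries. Its rises were 0.30 ± 0.02 and 0.36 ± 0.02, and the pulsed libraries again stood apart from the others. HSPA9, the mitochondrial HSP70, measured 442, 443 and 444 CPM in vehicle, 531, 520 and 515 in acute, 447, 445 and 452 in recovery and 528, 546 and 558 in repeat libraries. It rose by 0.24 ± 0.02 and 0.28 ± 0.02. HSPA4, an HSP110-type exchange factor, rose by 0.18 and 0.20.

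HSPA2, an HSP70 best known from testis, had the smallest adjusted p among members that fell. It measured 38.3, 37.4 and 35.5 CPM in vehicle, 25.0, 26.1 and 23.7 in acute, 31.9, 31.1 and 30.7 in recovery and 22.4, 23.6 and 21.9 in repeat libraries. In CPM the 4 groups did not overlap, with vehicle highest, but the lowest acute library (23.71) and the highest repeat library (23.62) nearly met. In TPM the acute and repeat libraries of HSPA2 overlapped, at 9.548 ± 1.05 and 9.595 ± 0.819. It fell by 0.57 ± 0.04 on the log2 scale in the first pulse (edgeR adjusted p = 6.48e-12) and by 0.46 ± 0.04 in the later (adjusted p = 7.41e-10). HSPA12A, a distant relative, fell by 0.48 and 0.45 on the log2 scale, though neither call was kept on the TPM scale (-0.25 and -0.26). HSPA4L fell in the first pulse alone, by 0.19 on the log2 scale. That direction turned on the TPM scale (0.08), and the call was lost with DESeq2 (-0.19) and without acute replicate 1 (-0.17).

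Of the stress-inducible HSP70 genes, HSPA1A passed in neither pulse, HSPA1B in the first and HSPA6 in the later. HSPA1A (chr6:31815543-31817946) measured 135, 128 and 131 CPM in vehicle, 138, 131 and 125 in acute, 125, 125 and 129 in recovery and 132, 121 and 122 in repeat libraries. These ranges overlapped, with log2 fold changes of 0.00 ± 0.04 in the first pulse and -0.02 ± 0.04 in the later. HSPA1B (chr6:31827738-31830254) measured 278, 291 and 263 CPM in vehicle and 300, 304 and 289 in acute libraries, which overlapped. Its first-pulse difference of 0.10 ± 0.03 passed the test (edgeR adjusted p = 0.0152). The call was lost under upper quartile scaling (0.08), on log2(TPM + 1) (0.10), with the 2 groups fitted alone (0.10), and without vehicle replicate 3 (0.07), acute replicate 1 (0.10) or acute replicate 2 (0.09). In the later pulse HSPA1B stood at 269, 275 and 270 CPM in recovery and 291, 290 and 275 in repeat libraries, a difference of 0.07 ± 0.03 that did not pass (adjusted p = 0.0813) although the groups did not overlap. It did pass with the replicate block (0.07), without the filter (0.08), with the 2 groups fitted alone (0.07), and without repeat replicate 3 (0.10), vehicle replicate 2 (0.07) or vehicle replicate 3 (0.07). Of the 75-base stretches, 73.8% in HSPA1A and 73.3% in HSPA1B also occur in other annotated genes, each other among them. The split of reads between the 2 is therefore uncertain. HSPA6 had 10 to 47 counts per library. It stood at 0.224, 0.282 and 0.410 CPM in recovery and 0.736, 0.760 and 0.495 in repeat libraries, and rose by 1.11 ± 0.31 (adjusted p = 0.00385). In the first pulse its difference of 0.46 ± 0.29 did not pass (adjusted p = 0.227), and 35.3% of its 75-base stretches are shared with HSPA7.

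The cytosolic HSP90 genes rose modestly in both pulses. HSP90AA1 measured 2038, 2093 and 2073 CPM in vehicle, 2244, 2227 and 2194 in acute, 2087, 2088 and 2062 in recovery and 2251, 2350 and 2357 in repeat libraries. HSP90AB1 measured 1570, 1625 and 1591 CPM in vehicle, 1873, 1817 and 1799 in acute, 1623, 1636 and 1584 in recovery and 1787, 1859 and 1851 in repeat libraries. For both genes the libraries at the end of a pulse lay above all others. HSP90AA1, the more heat-inducible of the pair, rose by 0.10 ± 0.02 and 0.16 ± 0.02, and HSP90AB1, the constitutive form, by 0.20 ± 0.02 and 0.18 ± 0.02. HSPH1, the cytosolic HSP110 exchange factor, rose by 0.13 ± 0.02 and 0.12 ± 0.02, from 219.3 ± 1.11 CPM in vehicle to 240.5 ± 0.850 in acute libraries. The mitochondrial chaperonin HSPD1 (HSP60) rose by 0.11 ± 0.02 and 0.17 ± 0.02, and its lid HSPE1 (HSP10) by 0.17 ± 0.03 and 0.15 ± 0.03. HSPD1 and HSPE1 lie head to head on chromosome 2 with annotated starts 105 to 539 bases apart. HSPE1 shares 31.0% of its 75-base stretches with other annotated genes, so its share of reads is uncertain.

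**Figure D3:**
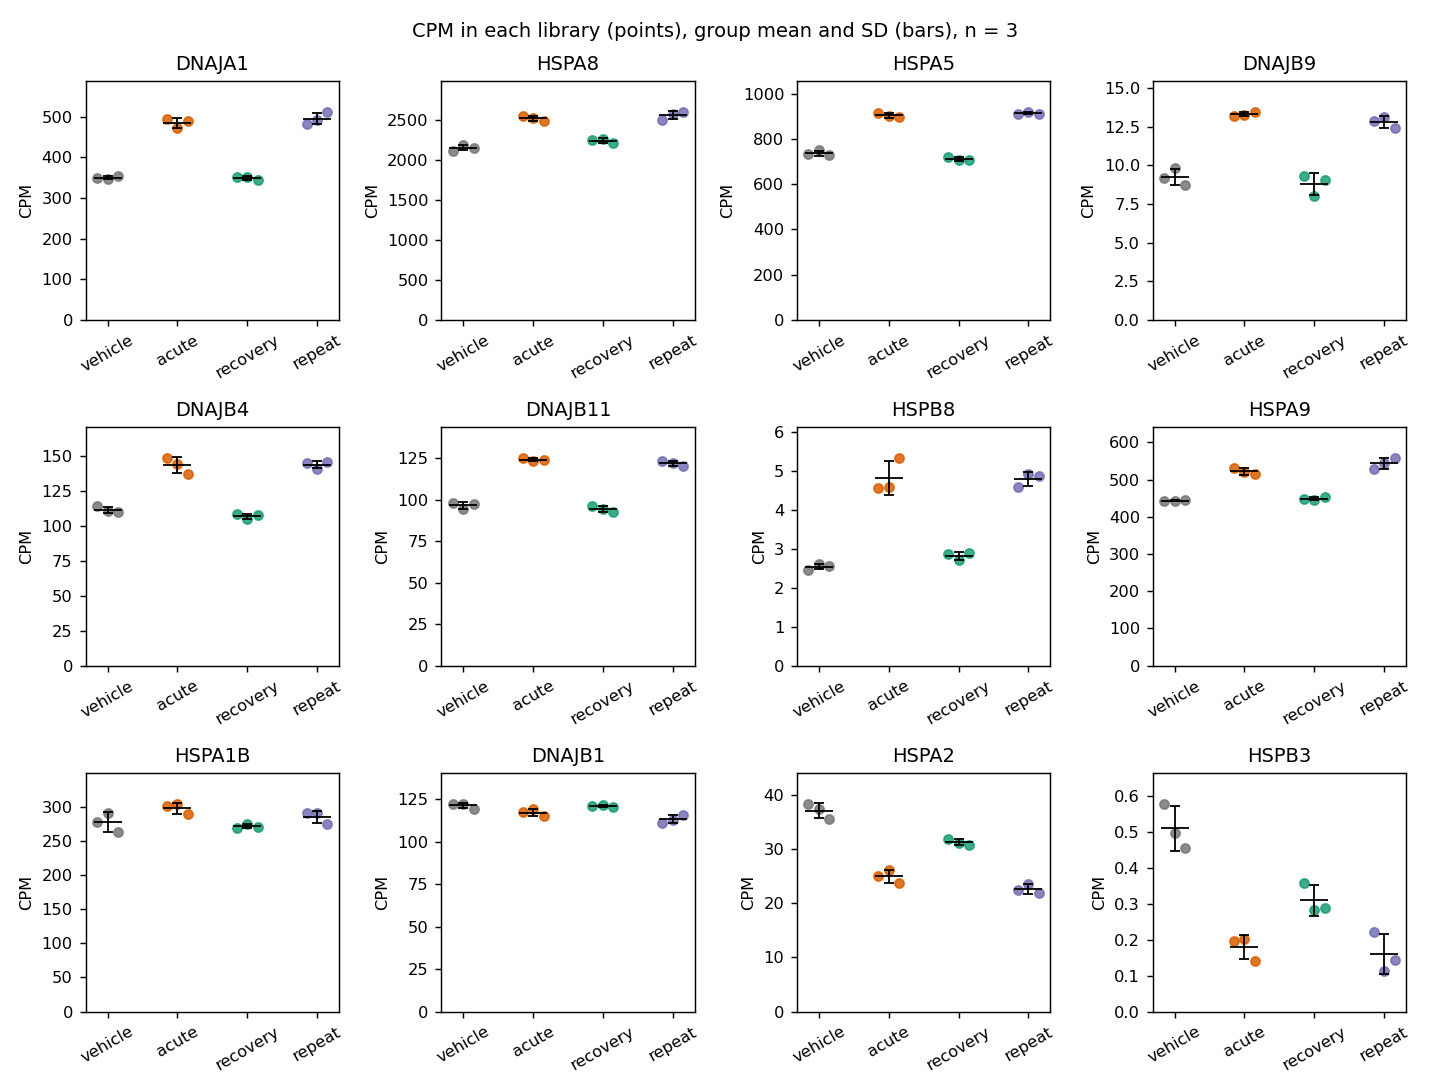
CPM (vertical axis, from 0) of 12 members in each library (points), with the mean and SD of 3 libraries (bars), in the vehicle, acute, recovery and repeat groups. DNAJA1, HSPA8, HSPA5, DNAJB9, DNAJB4, DNAJB11, HSPB8 and HSPA9 are higher in acute and repeat libraries, HSPA2 and HSPB3 are lower there, and HSPA1B and DNAJB1 differ little.

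All 4 DNAJA genes rose in the first pulse and 3 of them in the later one, against 22.3% and 21.1% of all genes. DNAJA1, a cytosolic partner of HSPA8 (chr9:33025273-33039907), measured 349, 345 and 353 CPM in vehicle and 495, 471 and 489 in acute libraries. In recovery libraries it measured 352, 351 and 344 CPM, within a few CPM of vehicle, and in repeat libraries 482, 492 and 511. It rose by 0.47 ± 0.02 (edgeR adjusted p = 5.91e-16) and by 0.50 ± 0.02 (adjusted p = 1.67e-16), or 1.39-fold and 1.42-fold. DNAJA2, another cytosolic partner, rose by 0.14 and 0.18, and the mitochondrial DNAJA3 by 0.22 and 0.23. DNAJA4 rose by 0.36 ± 0.11 in the first pulse, from 3.08 ± 0.0585 to 3.94 ± 0.0223 CPM, with a later difference of 0.09 ± 0.11 that did not pass (adjusted p = 0.542). Its first call was lost on the TPM scale (0.31).

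The DNAJB genes moved both ways, with 5 of 9 higher and 2 lower in the first pulse and 4 higher and 3 lower in the later. Among all genes, 22.3% were higher and 21.5% lower in the first pulse, and 21.1% and 20.5% in the later. DNAJB9, an endoplasmic reticulum J-domain protein, measured 9.16, 9.82 and 8.75 CPM in vehicle, 13.2, 13.3 and 13.4 in acute, 9.32, 7.99 and 9.04 in recovery and 12.9, 13.1 and 12.4 in repeat libraries. No pulsed library overlapped with an unpulsed one, and the rises were 0.53 ± 0.06 and 0.55 ± 0.06. The later call was lost on the TPM scale (0.43). DNAJB4, a cytosolic J-domain protein, measured 114, 110 and 110 CPM in vehicle, 149, 145 and 137 in acute, 108, 105 and 108 in recovery and 145, 141 and 146 in repeat libraries. Its rises of 0.36 ± 0.03 and 0.43 ± 0.03 again separated all pulsed libraries from the rest. DNAJB11, also of the endoplasmic reticulum, rose by 0.36 ± 0.02 and 0.37 ± 0.02, with 16.3% of its 75-base stretches shared with an overlapping annotated gene.

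DNAJB1, the classical heat-inducible HSP40, did not rise in either pulse. It measured 122, 122 and 120 CPM in vehicle, 117, 119 and 115 in acute, 121, 122 and 120 in recovery and 111, 113 and 116 in repeat libraries. The first difference of -0.05 ± 0.02 did not pass (edgeR adjusted p = 0.084), whereas it did under upper quartile scaling (-0.08). In the later pulse DNAJB1 fell by 0.10 ± 0.02 on the log2 scale (adjusted p = 0.00104), a call lost on the TPM scale (-0.10). DNAJB6, which restrains protein aggregation, fell by 0.17 ± 0.02 and 0.12 ± 0.02 on the log2 scale, both lost on the TPM scale (-0.10 and -0.03). DNAJB5 fell by 0.21 ± 0.06 and 0.19 ± 0.05 on the log2 scale. Its first call was lost without vehicle replicate 1 (-0.14) and both were lost on the TPM scale (-0.14 and -0.28).

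In the large DNAJC class 12 of 26 genes rose in each pulse, while 2 fell in the first and 3 in the later. The shares of all genes were 22.3% and 21.1% for rises and 21.5% and 20.5% for falls. Within the class the highest rise was that of DNAJC1, a membrane protein of the endoplasmic reticulum, at 0.34 ± 0.04 and 0.35 ± 0.04. It measured 24.1, 23.9 and 24.5 CPM in vehicle, 30.4, 29.9 and 31.3 in acute, 24.6, 25.6 and 23.5 in recovery and 31.1, 31.7 and 31.1 in repeat libraries, with no overlap between pulsed and unpulsed libraries. DNAJC16 rose by 0.31 ± 0.04 in the first pulse, a call lost on the TPM scale (0.18), DNAJC17 by 0.27 ± 0.06, and DNAJC25 by 0.22 ± 0.05 in the first and 0.26 ± 0.05 in the later pulse. DNAJC21, a J-domain protein of ribosome assembly, measured 77.8, 77.6 and 78.5 CPM in vehicle, 68.4, 68.3 and 68.1 in acute, 79.1, 78.6 and 75.0 in recovery and 69.2, 70.2 and 69.0 in repeat libraries. All pulsed libraries lay below all others, and it fell by 0.19 ± 0.03 and 0.16 ± 0.03 on the log2 scale, the later call being lost on the TPM scale (-0.08). In the later pulse the endosomal DNAJC13 fell by 0.15 ± 0.03 and the clathrin-uncoating DNAJC6 by 0.10 ± 0.04 on the log2 scale. Both calls were lost on the TPM scale (-0.08 and -0.13). That of DNAJC6 was also lost when any recovery or repeat library except recovery replicate 2 was left out, with values from -0.07 without recovery replicate 1 to -0.11 without repeat replicate 2, when acute replicate 3 (-0.10) or vehicle replicate 3 (-0.10) was left out, with DESeq2 (-0.11) and without the filter (-0.10). DNAJC18 fell in the first pulse by 0.14 ± 0.05 on the log2 scale. It turned to 0.04 on the TPM scale, and lost its call with DESeq2 (-0.14) and without vehicle replicate 1 (-0.13), vehicle replicate 3 (-0.13) or acute replicate 3 (-0.14).

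Grouped by where the proteins work, most of the 7 members listed for the endoplasmic reticulum rose. Of all genes 22.3% rose in the first pulse and 21.1% in the later. In the first pulse 6 of 7 rose (HSPA5, DNAJB9, DNAJB11, DNAJC1, DNAJC3 and DNAJC10) with a median of 0.30, and in the later pulse all 7 did, HSPA13 (0.11) included, with a median of 0.35. On the TPM scale 4 of 7 were called in the first pulse, DNAJC3 and DNAJC10 being lost, and 3 of 7 in the later, DNAJB9, DNAJC3, DNAJC10 and HSPA13 being lost. On that scale 14.0% and 12.1% of all genes rose. The first call of DNAJC10 was also lost under upper quartile scaling and without vehicle replicate 1 or 2 or acute replicate 3. That of DNAJC3 was lost without acute replicate 2, and its later call under upper quartile scaling and without recovery replicate 1. The summed level of the 7 went from 401.1 ± 7.83 TPM in vehicle to 487.5 ± 6.57 in acute and from 386.2 ± 3.69 in recovery to 479.2 ± 4.08 in repeat libraries. Of the 8 members listed as mitochondrial 7 rose in each pulse, with medians of 0.17 and 0.16. These were HSPA9, HSPD1, HSPE1, DNAJA3, DNAJC11 and DNAJC30 in both, DNAJC15 in the first (0.17) and DNAJC19 in the later (0.19). On the TPM scale 4 of 8 were called in the first pulse and 5 of 8 in the later, with DNAJC30 lost in both, DNAJC11 and DNAJC15 in the first and DNAJC19 in the later. DNAJC30 also lost both calls with DESeq2 and under upper quartile scaling, and its later call with the replicate block. Leaving out any vehicle replicate, or acute replicate 2 or 3, lost both of its calls too. Its later call was further lost with the 2 groups fitted alone and without recovery replicate 1 or repeat replicate 1 or 2. The call of DNAJC15 was lost with DESeq2, under upper quartile scaling, without the filter and without vehicle replicate 1 or acute replicate 3. That of DNAJC19 was lost without repeat replicate 2. No member of either list fell. The lists were chosen with earlier results of these data known and may leave out members that work there. DNAJC18, which fell in the first pulse, is in neither.

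Of the 5 small heat shock proteins, 1 rose and 1 fell in the first pulse, and 1 rose and 2 fell in the later. Over all genes, 22.3% rose and 21.5% fell in the first pulse, and 21.1% and 20.5% in the later. HSPB8, which works with BAG3 in the clearance of misfolded proteins, had the highest rise of all members in the first pulse. It measured 2.47, 2.60 and 2.56 CPM in vehicle, 4.56, 4.58 and 5.33 in acute, 2.87, 2.71 and 2.89 in recovery and 4.60, 4.91 and 4.88 in repeat libraries. Every pulsed library exceeded every unpulsed one. It rose by 0.92 ± 0.11 (edgeR adjusted p = 3.14e-08) and 0.77 ± 0.10 (adjusted p = 6.42e-07), or 1.90-fold and 1.70-fold. The transcript length implied by its counts and TPM varied between libraries with a CV of 27.1%, and the later call was lost on the TPM scale (0.32). HSPB3, a muscle small heat shock protein, had 6 to 33 counts per library. It measured 0.578, 0.498 and 0.455 CPM in vehicle, 0.196, 0.203 and 0.140 in acute, 0.359, 0.282 and 0.287 in recovery and 0.221, 0.113 and 0.144 in repeat libraries.

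Vehicle libraries were highest for HSPB3 and did not overlap with any other group. It fell by 1.5 ± 0.35 on the log2 scale in the first pulse (edgeR adjusted p = 0.000862) and by 0.95 ± 0.37 in the later (adjusted p = 0.0406). The later call was lost with DESeq2 (-0.96), without the filter (-0.94), with a length offset (-0.74), with the 2 groups fitted alone (-0.95), and without any of recovery replicates 1 to 3 (-0.83, -1.01 and -1.0) or repeat replicates 2 and 3 (-0.74 and -0.89). HSPB1 (HSP27), the abundant small heat shock protein, stood at 291.4 ± 11.9 CPM in vehicle, 293.6 ± 5.58 in acute, 277.0 ± 11.7 in recovery and 277.2 ± 18.2 in repeat libraries. Its differences of 0.01 ± 0.05 and 0.00 ± 0.05 did not pass. HSPB6 fell in the later pulse alone, by 0.17 ± 0.06 on the log2 scale (adjusted p = 0.0235). This call was lost with DESeq2 (-0.17), on the TPM scale (-0.14), and without recovery replicate 3 (-0.14) or repeat replicate 3 (-0.14).

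HSF1, the heat shock transcription factor, measured 92.9, 96.3 and 95.9 CPM in vehicle, 100.3, 96.0 and 96.2 in acute, 94.7, 95.6 and 92.8 in recovery and 97.9, 94.2 and 97.5 in repeat libraries. The groups overlapped, and its differences of 0.04 ± 0.03 (edgeR adjusted p = 0.259) and 0.03 ± 0.03 (adjusted p = 0.352) did not pass. The exchange factor BAG3 measured 135.5, 133.4 and 131.6 CPM in vehicle, 148.6, 151.2 and 150.9 in acute, 137.1, 137.3 and 131.4 in recovery and 143.1, 144.1 and 143.1 in repeat libraries. Pulsed libraries were all higher, with rises of 0.17 ± 0.02 (adjusted p = 6.66e-07) and 0.08 ± 0.02 (adjusted p = 0.00363). The later call was lost on the TPM scale (0.08).

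**Figure D4:**
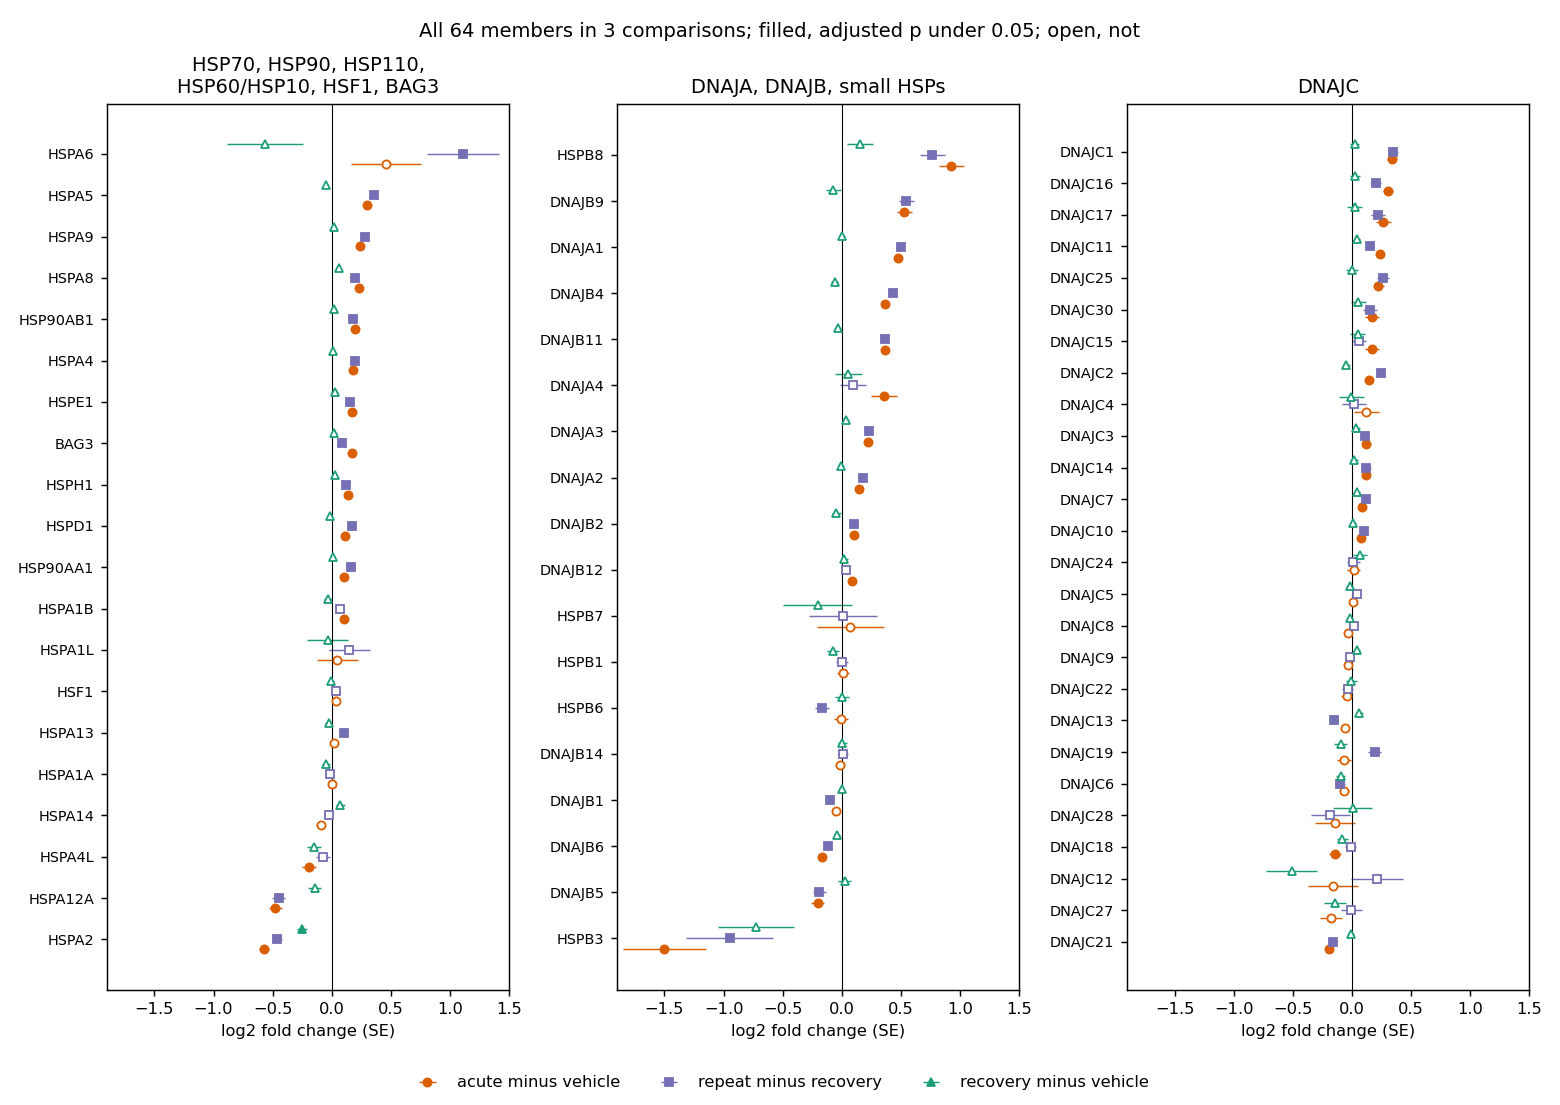
Log2 fold change with SE (horizontal axis) of all 64 members, grouped by class, in the first pulse (circles), the later pulse (squares) and recovery against vehicle (triangles), filled where the adjusted p was under 0.05. Circles and squares lie close together for most members, and HSPA2 has the single filled triangle, at -0.25.

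The comparison of recovery with vehicle libraries asked what remained 5 d after the pulse. No member was higher and 1, HSPA2, was lower by edgeR, against 3.03% and 2.91% of all genes, and the median difference was 0 over the members and over all genes. At an unadjusted p under 0.05, 2 members were higher and 8 lower, and the share of all genes at that threshold was not counted. DESeq2 called HSPA8 higher (0.06), and limma on log2(TPM + 1) called none. The HSPA2 difference was -0.25 ± 0.04 (edgeR adjusted p = 0.000171), with recovery libraries at 30.7 to 31.9 CPM between the vehicle range of 35.5 to 38.3 and the acute range of 23.7 to 26.1. That call was lost on the TPM scale (-0.29) and with a length offset (-0.30). HSPA2 ranged from 14.7 to 16.9 TPM in vehicle and from 11.9 to 14.6 in recovery libraries. DNAJA1, the member with the smallest adjusted p in both pulses, differed between recovery and vehicle means by less than either SD, at 349.3 ± 4.39 against 349.1 ± 3.93 CPM.

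The comparison of repeat with acute libraries asked whether the end of the later pulse matched that of the first. Time in culture differed here too as labelled (day 7 against 24 h), so its effect cannot be told apart from that of the earlier pulse. HSPA14 was the 1 member that was higher and none was lower, against 1.77% and 2.43% of all genes. At an unadjusted p under 0.05 there were 8 higher and 5 lower, again without a matching share over all genes. HSPA14, a ribosome-associated HSP70, measured 27.6, 26.5 and 27.4 CPM in acute and 29.3, 29.4 and 31.3 in repeat libraries, which did not overlap, with a difference of 0.14 ± 0.04 (edgeR adjusted p = 0.0427). The call was lost with DESeq2 (0.14), on the TPM scale (0.17), with a length offset (0.18), with the 2 groups fitted alone (0.14), and without vehicle replicate 2 (0.14), acute replicates 1 to 3 (0.15, 0.12 and 0.15) or repeat replicates 2 and 3 (0.15 and 0.11). DESeq2 called HSP90AA1 higher (0.06). Without repeat replicate 1 there were 4 higher (HSPA14, HSPA9, HSP90AA1 and DNAJC7) and 2 lower (HSPA1A and HSPA12A). The same fit gave 518 higher and 715 lower of 18119 genes.

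The difference between the 2 responses was tested directly as an interaction. The later pulse also came after more time in culture as labelled, and that cannot be told apart from the earlier pulse. EdgeR called no member higher or lower, against 0.221% and 0.43% of all genes, and DESeq2 and limma called none either. At an unadjusted p under 0.05 there were 8 members, with no share over all genes counted beside them. The smallest adjusted p was 0.174, for DNAJC19 (0.26 ± 0.08). For the 58 members averaging 100 counts or more, the fitted differences between the later and the first response ran from -0.26 to 0.26 on the log2 scale.

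Among 40 other genes of the chaperone network, 18 rose and 7 fell in the first pulse and 21 rose and 3 fell in the later, with medians of 0.07 and 0.08 against 0 over all genes in both. The shares over all genes were 22.3% higher and 21.5% lower in the first pulse and 21.1% and 20.5% in the later. Of 13 HSP70 partners 4 rose and 4 fell in the first pulse, and 4 rose and 2 fell in the later. SIL1, the exchange factor of HSPA5, had the largest rise of the partners in both, by 0.54 ± 0.04 and 0.49 ± 0.04. HYOU1, the HSP110 relative of the endoplasmic reticulum, rose by 0.17 and 0.19, and GRPEL1, the mitochondrial exchange factor, by 0.22 and 0.26. In the same group BAG6 fell by 0.15 and 0.16 and ST13, which links HSP70 to HSP90, by 0.12 and 0.10 on the log2 scale. Of 11 HSP90 partners and paralogs 7 rose in the first pulse, and 8 rose and 1 fell in the later. Those that rose included AHSA1, the activator of the HSP90 ATPase (0.31 and 0.27), and HSP90B1, the HSP90 of the endoplasmic reticulum (0.24 and 0.27). The TRiC chaperonin, which folds actin and tubulin, had 5 of 8 subunits higher and then 7 of 8, with CCT8 at 0.19 and 0.20, and of 6 prefoldin subunits 2 rose in each pulse and VBP1 fell in the first. HSF2 and HSBP1 fell in the first pulse (by 0.15 and 0.07 on the log2 scale) and did not pass in the later (-0.05 and -0.02). HYOU1 was the 1 gene of the 40 lower in recovery against vehicle (-0.10), and the 1 lower in repeat against acute libraries (-0.09), and none was higher.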

How the data were processed

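Poly(A) RNA of 12 AC16 libraries in 4 groups of 3 was sequenced as single-end reads from strand-specific libraries. Per the submitters' processing notes, the authors aligned with STAR 2.7.11a to GRCh38.p13 and counted with featureCounts 2.0.3, and the notes also list cutadapt 4.3 within Trim Galore 0.6.10, edgeR and Picard 2.27.5, whereas the series' design text names DESeq2. Whether counting used strand was not given in the sources used here. Deposited by the authors were 1 table of estimated counts per gene, in which 25.5% of the nonzero values were not whole, and 1 table of TPM. Counts were rounded before testing, 60507 of 60649 IDs matched the symbol table, and 0 columns lacked a sample. Reads shared by near-identical genes, and differing transcript lengths, can move both units.

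All 12 libraries were fitted in 1 model with edgeR 4.0.16 (R 4.3.3), by the quasi-likelihood test with TMM scaling, the filterByExpr filter (minimum count 10) and two-sided Benjamini-Hochberg adjustment over 18119 genes. The biological coefficient of variation was 2.67%. P-values measure the spread between these libraries. Limma 3.58.1 on log2(TPM + 1), referred to as the TPM scale, and DESeq2 1.42.0 were among the alternatives. The scripts were tested on simulated counts. Named throughout were the 2 marker genes, the central HSP70, HSP90, chaperonin and regulator genes, and in each comparison up to 10 called members with the largest rise and up to 10 with the largest fall. Other members are named to account for small counts or as examples and were chosen after their values were seen. The members, gene lists, compartments and motifs were chosen with earlier results of these data known. Stretches of 75 bases were matched between GENCODE v44 transcripts. Protein sequence features were not analysed here.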

Additional observations from a re-analysis of the deposited data

How the results depend on the processing

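Across 109 named results, 29 changed their call or direction under at least 1 alternative. In the first pulse, the 33 rises became 21 on log2(TPM + 1), 21 on log2(TPM + 0.1) and 21 with a length offset, and the 8 falls became 3, 3 and 4. Over all genes the shares higher went from 22.3% to 14.0%, 14.0% and 12.7%, and those lower from 21.5% to 10.0%, 9.94% and 11.7%. DNAJC18 turned to 0.0436, 0.046 and 0.022 under the same alternatives and HSPA4L to 0.0791, 0.114 and 0.102. In the later pulse the 32 rises became 21, 21 and 20, and the 10 falls 2, 2 and 2. The cause was not tested. Members called in every setting numbered 20 rises and 3 falls in the first pulse and 20 rises and 1 fall in the later. No such count was made over all genes. In recovery against vehicle, DESeq2 gave 1 member higher, and the 1 lower became 2 without the filter, 2 with the groups fitted alone and 0 on both TPM scales. With a length offset HSPA2 lost its call (-0.304), and the 1 member lower was DNAJC2 instead. Over all genes 2.45% were higher with DESeq2. The shares lower were 1.6% without the filter, 3.2% with the groups alone, 0.232% and 0.243% on the TPM scales and 0.386% with the offset. In repeat against acute, the 1 higher became 0 on both TPM scales, with a length offset and with the groups fitted alone. The shares of all genes higher were then 0.0166%, 0.0166%, 0.0331% and 1.23%. Leaving out each library in turn gave 28 to 33 rises and 6 to 9 falls in the first pulse, 29 to 33 and 7 to 10 in the later, 0 to 0 higher and 1 to 1 lower in recovery against vehicle, 0 to 4 higher and 0 to 2 lower in repeat against acute, and 0 for the interaction in both directions. Of all 18119 genes, the same fits gave 3553 to 4130 higher and 3475 to 3947 lower in the first pulse. They gave 3457 to 3837 and 3330 to 3723 in the later pulse, and 341 to 601 and 286 to 579 in recovery against vehicle. For repeat against acute the ranges were 148 to 518 and 169 to 715, and for the interaction 12 to 88 and 39 to 260.

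Replicate numbers were not taken to pair the libraries, since in no comparison were all correlations between deviations of same-numbered libraries over 0.1. They were 0.0739 to 0.233 for vehicle with acute and 0.0794 to 0.145 for vehicle with repeat, where every library correlated best with its own number, a hint from the data and not the design. With recovery libraries they were -0.151 to 0.15 (vehicle), -0.156 to 0.047 (acute) and -0.192 to 0.044 (repeat). With the replicate number as a block, 33 members rose and 8 fell in the first pulse, against 22.4% and 21.6% of all genes. In the later, 32 rose and 10 fell, against 21.1% and 20.6%. Under this block, 2 members (HSPA2 and HSPB1), where there had been 0, were lower in repeat against acute libraries, against 2.73% of all genes. Low counts limited HSPA6, HSPB3, HSPB7 and HSPA1L.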
